A study of Homo sapiens with 6 samples.

Results

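Interferon-stimulated and RNA-sensing genes were followed in cells that express a short hairpin RNA (shRNA), a kind of molecule that RNA sensors can in principle recognise. The set holds 44 genes, listed by name for their known roles and matched by symbol to the 58302 Ensembl genes of the read counts. The study sequenced RNA from the breast cancer line labelled MDA-MB231, with 3 libraries expressing a control shRNA (control) and 3 expressing Smyca shRNA #1 (Smyca knockdown), numbered as repeats 1 to 3. Smyca is a long noncoding RNA, counted here as MIR23AHG. Both groups carry an shRNA, so a response shared by the 2 hairpins cannot be told apart from the cells' own level. Total counts were 16501085, 15560192 and 14999307 in the control and 15714911, 16388020 and 15788258 in the knockdown. The paper calls the repeats biological, but whether each was a separate culture is not given in the sources used here. P-values thus measure the spread between these libraries, part of which may be technical.

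Cells detect foreign or misplaced double-stranded RNA through the cytosolic helicases RIG-I (RIGI) and MDA5 (IFIH1) and the endosomal receptor TLR3. The helicases signal through MAVS on mitochondria, TLR3 through the adaptor TICAM1, and both routes activate the factors IRF3 and IRF7, which turn on interferon genes. Secreted interferon acts back on the cells through its receptors, and a complex that contains STAT2 and IRF9 then turns on the interferon-stimulated genes, many of which encode proteins that bind, cut, edit or trap viral RNA.

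The knockdown could be seen in the target gene. On the scale of normalized CPM (CPM, counts over library size, scaled with TMM factors), MIR23AHG had 24.9, 19.5 and 21.9 in the control and 10.5, 6.96 and 5.60 in the knockdown. Every control repeat was above every knockdown repeat, and the log2 fold change, knockdown over control, was -1.53 (SE 0.26, adjusted p = 0.111 in edgeR, by the quasi-likelihood F statistic and the Benjamini-Hochberg method).

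The labelled cell type was compared with 14 marker genes. VIM, CD44, AXL, CAV1, MSN and ZEB1 were counted, ESR1 had at most 3 counts, and PGR had 0 counts in every library. SPARC, listed as high in this line, had at most 11 counts. CDKN2A, a gene that MDA-MB-231 cells are known to lack, was at 358, 335 and 419 normalized CPM in the control and at 428, 420 and 395 in the knockdown. EPCAM, CDH1, KRT19 and ERBB2 were also listed as low or absent in this line, but were counted in every library. EPCAM was between 236 and 335 normalized CPM, CDH1 between 71.3 and 300, KRT19 between 848 and 1953, and ERBB2 between 46.6 and 72.1. The values of CDKN2A, SPARC, EPCAM, CDH1, KRT19 and ERBB2 go against what is listed for the label. The cells are therefore called below the libraries labelled MDA-MB-231. Of 7 intestinal markers, HNF4A was between 65.2 and 194 and VIL1 between 220 and 500 normalized CPM. CDX2 was between 6.07 and 11.1, LGALS4 had 5 to 21 counts, GPA33 and KRT20 had at most 6, and CDX1 had 0 in every library. Of 5 liver markers, SERPINA1 was between 26.2 and 74.0 normalized CPM. ALB had at most 4 counts, APOA1 at most 1, and APOB and TTR had 0 in every library. Of the blood cell markers, PTPRC and CLEC4C had 0 counts in every library, CD14 had 6 to 25 counts and IL3RA 13 to 55. Some of the markers tested also separated the groups, with VIL1 higher and VIM, ZEB1, COL1A1, LGALS4 and IL3RA lower in every knockdown repeat. Of these, 0 were called by edgeR, beside 0.0265% of all genes tested. The groups did not overlap in 24.9% of all genes tested. The part of such marker differences in the members' values was not tested.

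Libraries of the same group were not equally alike. Over the 15075 genes tested, the median absolute difference in log2(CPM of total counts + 1) was 0.185 between control repeats 1 and 2, against 0.365 and 0.312 between control repeat 3 and these 2. It was 0.183 between knockdown repeats 1 and 2, and 0.270 and 0.256 between knockdown repeat 3 and these 2. The repeat numbered 3 thus stood apart in each group. Control repeat 3 was nearer to knockdown repeat 1 (0.278) than to either other control repeat, and at 0.337 from knockdown repeat 3, so the 2 repeats numbered 3 were not alike over all genes. Control repeat 3 also differed in the cell markers, with HNF4A at 65.2 normalized CPM against 167 and 187 in the other control repeats, CDH1 at 71.3 against 300 and 192, and CAV1 at 27.8 against 101 and 73.0. The CDH1 and CAV1 values of control repeat 3 lay near those of knockdown repeats 1 and 2, which were 93.7 and 77.5 for CDH1 and 29.9 in both for CAV1. Knockdown repeat 3 did not share the low HNF4A, at 193 against 185 and 194. Fold changes without each repeat 3 are given below for IFIT1, IFIT2, IFIT3 and 12 further members.

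Levels were compared between genes as FPKM computed from the counts, which divides by gene length and library total. IFITM3 and IFITM2, membrane proteins that hinder virus entry, had the highest mean FPKM over the 6 libraries, 276 and 210. They were followed by the transcription factor IRF3 with 165, the RNA-editing enzyme ADAR with 112, the ubiquitin ligase TRIM25 with 72.9 and the ubiquitin-like protein ISG15 with 69.8. The sensors were expressed at a much lower level per length, with mean FPKM of 5.08 for IFIH1, 1.55 for RIGI, 1.27 for TLR3 and 0.440 for DHX58, a helicase that regulates the other RNA helicases. Their adaptor MAVS was at 18.1. IFI44, IFI44L, DHX58, RSAD2, HERC5, XAF1, SAMD9L and IFITM1 had too few counts for the low-count filter, and the other 36 genes were tested. HERC5, SAMD9L, IFI44L and XAF1 had at most 3 counts in any library.

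**Figure D1:**
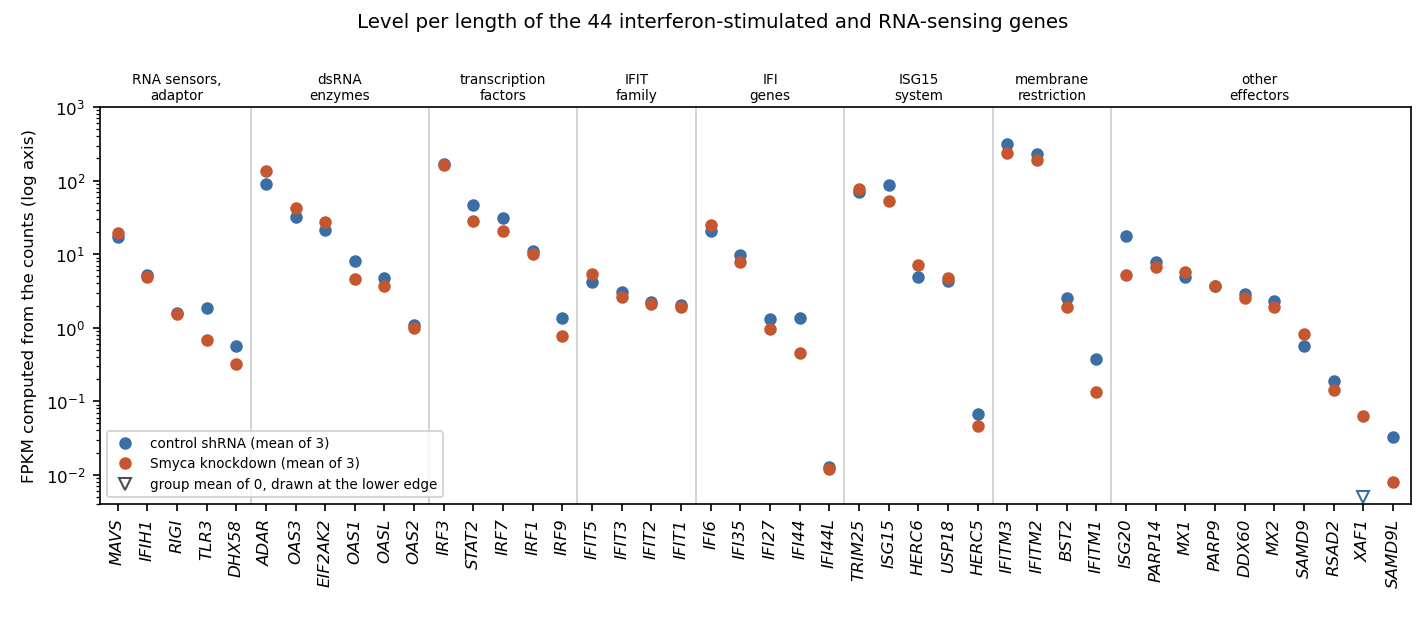
Level of each of the 44 genes on a log axis, as mean FPKM computed from the counts over 3 control (blue) and 3 Smyca knockdown (orange) libraries, grouped by role. IFITM3, IFITM2 and IRF3 stand at the top with 276, 210 and 165 over all 6 libraries, the RNA sensors lie between 0.440 and 5.08, and XAF1 has no count in the control.

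A gene was called when its adjusted p was under 0.05 and its fold change at least 1.5. With edgeR's quasi-likelihood test, 0 of the 36 members tested were called, where 4 of all 15075 genes (0.0265%) were. Under an unadjusted p of 0.05 lay 9 of the 36 members (25.0%), against 19.2% of all genes. DESeq2's Wald test called 4 of these 36 members (11.1%), ADAR, ISG20, STAT2 and TLR3, and 871 of the same 15075 genes (5.78%). The log2 fold change was positive for 15 members and negative for 21, with a median of -0.055 beside -0.036 over all genes. This median changed sign with single libraries, to 0.11 without control repeat 3, 0.049 without knockdown repeat 1 and 0.16 without knockdown repeat 2, and was -0.30 without knockdown repeat 3. The groups did not overlap in 9 members (25.0%), 3 higher and 6 lower in the knockdown. Over all genes, 24.9% did not overlap, 12.5% higher and 12.3% lower. The share of members that separated the groups was thus close to that of all genes.

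Several members also differed between libraries of the same group. IFIT1, IFIT2 and IFIT3 encode proteins with tetratricopeptide repeats that bind viral RNA and are among the most inducible interferon-stimulated genes. IFIT1 had 2.28, 3.75 and 13.2 normalized CPM in the control and 4.18, 3.10 and 11.6 in the knockdown. IFIT2 was at 2.52, 4.61 and 14.9 in the control and at 6.53, 3.80 and 12.1 in the knockdown. For IFIT3 the values were 3.33, 4.05 and 14.4 in the control and 6.34, 3.54 and 10.1 in the knockdown. In all 3 genes repeat 3 was the highest library of its own group, in the control and in the knockdown, and the groups overlapped. Summed over the 3 genes, control repeat 3 held 42.5 and knockdown repeat 3 held 33.8 normalized CPM, while the other 4 libraries lay between 8.13 and 17.1. Between the groups the log2 fold changes were -0.023, 0.020 and -0.12, with SE of 0.69, 0.64 and 0.59. Without control repeat 3 they were 1.06, 1.06 and 0.85, and without knockdown repeat 3 they were -0.80, -0.50 and -0.54.

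OASL, an oligoadenylate synthetase-like protein that strengthens RIG-I signalling, showed the widest range of the members tested. It was at 5.11, 5.34 and 14.5 normalized CPM in the control and at 3.99, 1.64 and 15.1 in the knockdown, so that its highest library was 9.18 times its lowest. Repeat 3 was again the highest of each group. IFI44, an interferon-induced protein below the low-count filter, had 1, 0 and 53 counts in the control and 0, 2 and 17 in the knockdown. RSAD2, which encodes the antiviral enzyme viperin, had 0, 0 and 10 counts in the control and 0, 0 and 8 in the knockdown. A count of 0 allows up to 3 counts, for counting error only. In the count columns, RSAD2 was thus above that limit in the repeats numbered 3 alone. The deposited FPKM values of control repeat 2, described below, correspond to 69 reads of IFI44 and 11 of RSAD2.

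Of the 36 members tested, 18 (50.0%) had their highest value of each group in repeat 3. Over all genes tested this share was 13.7%. The same was true of repeat 1 for 1 member, TRIM25, and of repeat 2 for 1 member, IFITM2, against 11.5% and 6.70% of all genes. The 18 genes were IFIT1, IFIT2, IFIT3, IFIT5, IFI27, IFIH1, RIGI, TLR3, ISG15, OAS2, OASL, IRF1, IRF7, USP18, SAMD9, PARP9, PARP14 and DDX60. Relative to the mean of the 6 libraries, the median member was at -0.095, 0.0058 and 0.18 in the control and at -0.018, -0.33 and 0.24 in the knockdown, in log2(normalized CPM + 1). The same median over all genes lay between -0.017 and 0.014. Within groups, 9 of the 36 members (25.0%) had an SD over 0.5 on this scale, against 10.2% of all genes. The SD within groups was above the difference between groups in 20 members (55.6%), near the 50.5% of all genes. Whether the repeats numbered 3 were grown, infected or prepared together is not given in the sources used here, and the part of such handling in this pattern was not tested.

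**Figure D2:**
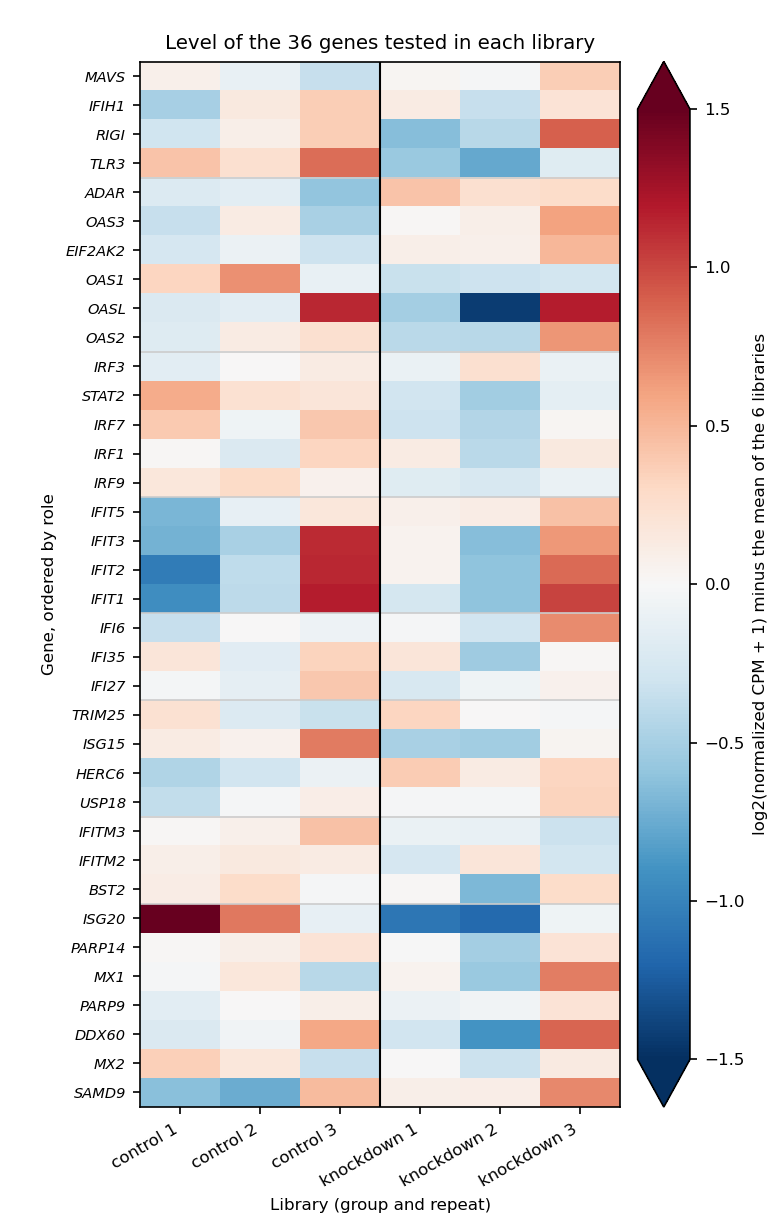
Level of each of the 36 members tested in each library, as log2(normalized CPM + 1) minus the mean of the 6 libraries, with members ordered by role and the groups parted by a black line. Red marks a higher and blue a lower level, and IFIT1, IFIT2, IFIT3, OASL and DDX60 are red in repeat 3 of both groups.

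Outside the set, 4 of 10 further interferon-stimulated genes tested and 0 of 10 interferon, receptor and JAK genes tested were highest in repeat 3 of both groups. The same was true of 2 of 9 signalling partners of the sensors and 2 of 9 small RNA processing genes (22.2% each). Over all genes tested the share was 13.7%. Some genes below the low-count filter, chosen after their values were seen, are described next. IFNL1, a type III interferon that epithelial cells secrete, had 0, 0 and 24 counts in the control and 9, 5 and 17 in the knockdown. With IFNL2 and IFNL3, near-identical copies whose reads cannot be told apart with certainty, the sums were 0, 0 and 51 in the control and 12, 6 and 25 in the knockdown. The sum was highest in control repeat 3. In control repeats 1 and 2 a sum of 0 allows up to 3 counts. The 6 of knockdown repeat 2 carries counting error too, so no difference between the groups is drawn from these sums. The FPKM values of control repeat 2 also correspond to reads of all 3 genes. In the knockdown, IFNL2 had 2, 1 and 2 counts and did not single out repeat 3. IFNB1, the type I interferon of most cell types, had 1 count in each repeat numbered 3 and 0 elsewhere. CCL5, a chemokine induced by RNA sensing, had 0, 1 and 59 counts in the control and 9, 7 and 33 in the knockdown. CXCL10, a chemokine induced by interferon, had 0, 0 and 27 counts in the control and 3, 2 and 9 in the knockdown. Both chemokines were highest in repeat 3 of each group, and all of these genes were below the low-count filter.

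A second column bears on control repeat 2. Its deposited FPKM values did not follow its counts, and they correspond to whole reads with 187 for IFIT1, 237 for IFIT2, 239 for IFIT3 and 257 for OASL, where its counts were 61, 75, 66 and 87. Those 4 values lie near the counts of control repeat 3, which were 206, 234, 225 and 227. With these reads for control repeat 2, the log2 fold changes of IFIT1, IFIT2, IFIT3 and OASL were -0.47, -0.47, -0.65 and -0.73. With its counts they were -0.023, 0.020, -0.12 and -0.27. The same column corresponds to 31, 16 and 15 reads of IFNL1, IFNL2 and IFNL3, 64 of CCL5 and 29 of CXCL10. Over the 15075 genes tested, it differed from control repeat 3 by a median of 0.0946 in log2(CPM of total counts + 1), less than any 2 of the 6 count columns differed, and from the counts of control repeat 2 by 0.319. With this column for control repeat 2, 14 of the 36 members (38.9%) were highest in repeat 3 of both groups, beside 1662 of all 15075 genes. With its counts on the same scale these were 17 members (47.2%) and 2011 genes. Which column holds the library of control repeat 2 cannot be told apart, and the counts are used below.

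**Figure D3:**
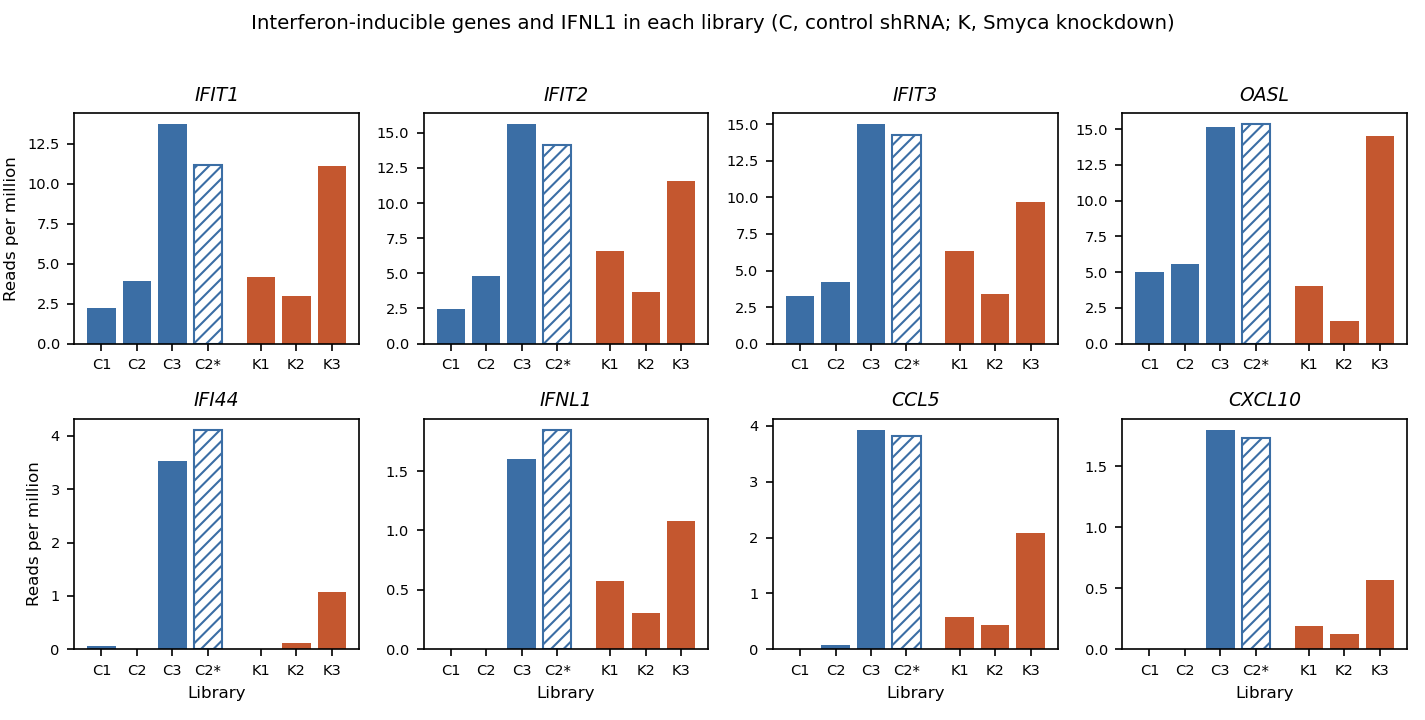
CPM of total counts for IFIT1, IFIT2, IFIT3, OASL, IFI44, IFNL1, CCL5 and CXCL10 in control repeats 1 to 3 (C1 to C3, blue) and Smyca knockdown repeats 1 to 3 (K1 to K3, orange). The hatched bar (C2*) shows the reads behind the FPKM values of control repeat 2, which for IFIT1 are 187 reads against 61 counts. C3 and K3 are the highest count columns of their groups in all 8 genes.

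Among the sensors, TLR3 differed most between the groups. It was at 4.37, 3.68 and 6.13 normalized CPM in the control and at 1.71, 1.33 and 2.51 in the knockdown. All control repeats were above all knockdown repeats, at 21 to 96 counts a library. The log2 fold change was -1.35 (SE 0.36, edgeR adjusted p = 0.127, and 0.0245 with DESeq2). RIGI was at 4.74, 6.51 and 8.11 in the control and at 3.55, 4.30 and 12.2 in the knockdown, and IFIH1 between 6.40 and 12.6 over all libraries. Both helicases overlapped between the groups, with log2 fold changes of 0.048 (SE 0.47) and -0.040 (SE 0.30). Without knockdown repeat 3, RIGI was at -0.71 and IFIH1 at -0.15. MAVS overlapped as well, at 0.26 (SE 0.17), and 0.14 without knockdown repeat 3. DHX58 had 4, 9 and 19 counts in the control and 12, 0 and 7 in the knockdown.

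Of the enzymes that act on double-stranded RNA, 3 had a positive and 3 a negative log2 fold change. Of these 6, 0 were called by edgeR, beside 0.0265% of all genes. ADAR, which turns adenosine into inosine in double-stranded RNA and so keeps the cell's own RNA from the sensors, was at 216, 223 and 164 normalized CPM in the control. In the knockdown it was at 335, 295 and 301. All knockdown repeats were above all control repeats, and the log2 fold change was 0.62 (SE 0.16, edgeR adjusted p = 0.126, and 0.0216 with DESeq2). EIF2AK2, which encodes the kinase PKR that halts translation when it binds double-stranded RNA, was at 52.3, 59.0 and 50.3 in the control and at 66.4, 66.0 and 88.6 in the knockdown. These groups did not overlap either, with a log2 fold change of 0.45 (SE 0.17, edgeR adjusted p = 0.197).

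The oligoadenylate synthetases, which make short adenylate chains when they bind double-stranded RNA, lie side by side on chromosome 12 in the order OAS1, OAS3, OAS2, with 4831 and 1934 bases between them. OAS1 was at 8.99, 11.9 and 6.39 normalized CPM in the control and at 5.32, 5.44 and 5.60 in the knockdown. Its knockdown repeats were nearly level and all below the control, at a log2 fold change of -0.73 (SE 0.28, edgeR adjusted p = 0.207). With the reads behind the FPKM values of control repeat 2, its log2 fold change was -0.25 and its groups overlapped. Those reads gave 4.48 CPM of total counts, below every knockdown repeat on that scale (5.25 to 5.38). OAS3 went the other way, at 48.6, 67.8 and 43.9 in the control and 63.0, 66.0 and 94.8 in the knockdown, but its groups overlapped (log2 fold change 0.48, SE 0.22). That overlap came from the counts of control repeat 2. With the reads behind its FPKM values, OAS3 was at 42.3 CPM of total counts there, against 63.3, 63.7 and 91.1 in the knockdown. Its groups then did not overlap, and its log2 fold change was 0.76. OAS2 was between 1.39 and 4.02 and overlapped too.

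STAT2 had the lowest adjusted p of the members. It was at 77.3, 61.3 and 59.3 normalized CPM in the control and at 42.5, 36.1 and 46.9 in the knockdown. Every control repeat was above every knockdown repeat, and the log2 fold change was -0.66 (SE 0.17, edgeR adjusted p = 0.125). DESeq2's Wald test called STAT2. Its partner IRF9 was at 1.17, 1.35 and 1.02 in the control and at 0.697, 0.633 and 0.791 in the knockdown. Its groups did not overlap, but it rested on 10 to 22 counts a library, with a log2 fold change of -0.74 (SE 0.37, edgeR adjusted p = 0.317). IRF7, which amplifies interferon transcription, was at 46.1, 33.2 and 46.3 in the control and 27.8, 25.4 and 35.4 in the knockdown. Knockdown repeat 3 reached above control repeat 2, and the log2 fold change was -0.50 (SE 0.20, edgeR adjusted p = 0.215). IRF3 and IRF1 overlapped, at 0.032 (SE 0.16) and -0.089 (SE 0.24).

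ISG15 is joined to other proteins as a ubiquitin-like tag, which the ligase HERC5 attaches and USP18 removes. HERC5 had at most 3 counts in any library. ISG15 was at 51.7, 49.7 and 82.3 normalized CPM in the control and at 33.7, 32.8 and 48.8 in the knockdown. The groups did not overlap, although knockdown repeat 3 came within 1 unit of control repeat 2, and the log2 fold change was -0.67 (SE 0.24, edgeR adjusted p = 0.194). HERC6 was higher in the knockdown, with 15.4, 12.7 and 14.7 against 8.19, 9.27 and 10.9 in the control. Its groups did not overlap, and its log2 fold change was 0.60 (SE 0.21, edgeR adjusted p = 0.183). USP18 and TRIM25, which activates RIG-I, overlapped between the groups, with log2 fold changes of 0.21 (SE 0.24) and 0.20 (SE 0.19). With single libraries left out these ranged from 0.065 (without control repeat 1) to 0.33 (without control repeat 3) and from 0.082 (without knockdown repeat 1) to 0.38 (without control repeat 1).

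**Figure D4:**
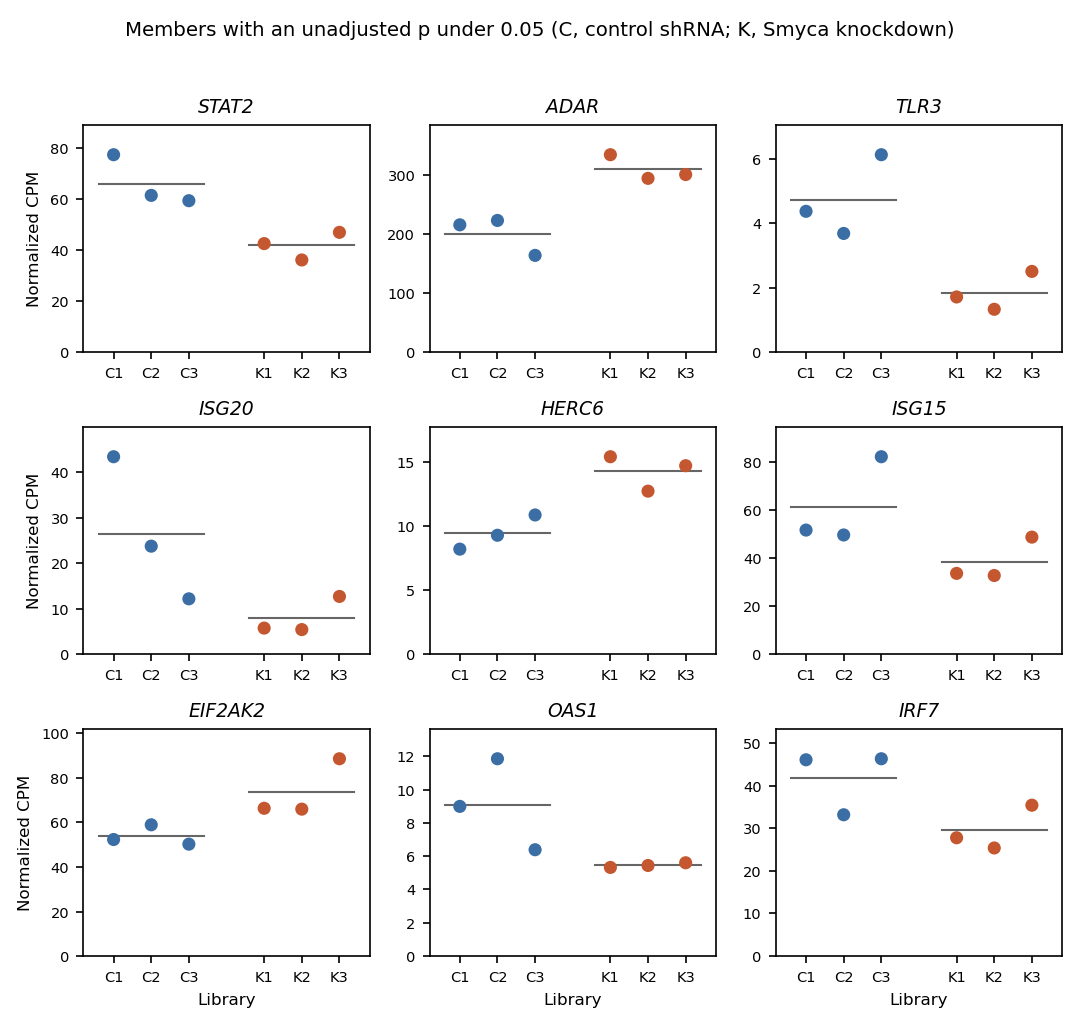
Normalized CPM of the 9 members with an unadjusted p under 0.05 in each control (C1 to C3, blue) and Smyca knockdown (K1 to K3, orange) library, with a line at each group mean. ADAR, EIF2AK2 and HERC6 are higher in every knockdown library, STAT2, TLR3, ISG15 and OAS1 are lower in every one, and the groups overlap in ISG20 and IRF7.

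Of the membrane proteins, IFITM3 was at 175, 183 and 237 normalized CPM in the control and at 162, 160 and 138 in the knockdown. Every control repeat was above every knockdown repeat, with a log2 fold change of -0.37 (SE 0.16, edgeR adjusted p = 0.268). IFITM2, 1 of 3 related genes within a short stretch of chromosome 11 whose reads may be shared, overlapped at -0.22 (SE 0.16), from -0.38 without knockdown repeat 2 to -0.13 without knockdown repeat 3. BST2, or tetherin, which holds budding virus at the cell surface, had 7 to 29 counts a library and overlapped too.

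Among the other effectors, the exonuclease gene ISG20 had the largest fold change. It was at 43.4, 23.7 and 12.1 normalized CPM in the control and at 5.71, 5.38 and 12.7 in the knockdown. Knockdown repeat 3 lay just above control repeat 3, so the groups overlapped. The log2 fold change was -1.74 (SE 0.49, edgeR adjusted p = 0.136, and 0.00726 with DESeq2). SAMD9, which restricts poxviruses, was at 2.09, 1.84 and 5.62 in the control and 4.06, 4.11 and 6.86 in the knockdown with all libraries. Control repeat 3 was above knockdown repeats 1 and 2, and the log2 fold change was 0.65 (SE 0.47). MX1 and MX2, GTPases that block virus replication, were at 0.29 (SE 0.39) and -0.18 (SE 0.34), and DDX60, PARP9 and PARP14 between -0.18 and 0.044. DDX60 ranged from -0.92 to 0.32 with single libraries left out.

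Leaving out a repeat numbered 3 kept the sign of the fold change in the 12 members below, but not its size. These 12 are among the members that kept their sign under every alternative. Of the 36 members, 8 changed sign without control repeat 3 and 5 without knockdown repeat 3. Without control repeat 3, the log2 fold change was -0.40 for ISG15, -1.12 for TLR3, -0.42 for IRF7, -0.22 for IFITM3, 0.50 for ADAR, 0.41 for EIF2AK2, 0.36 for OAS3 and 0.71 for HERC6. Without knockdown repeat 3, it was -0.87, -1.62, -0.65, -0.29, 0.65, 0.31, 0.28 and 0.58 for the same genes. ISG20, OAS1, STAT2 and SAMD9 were called without control repeat 3, at -2.08, -0.93, -0.72 and 1.35 (edgeR adjusted p = 0.0168, 0.0406, 0.0338 and 0.0442). These 4 of 36 members (11.1%) stood beside 1646 of the 15449 genes tested without that library (10.7%). Without knockdown repeat 3, the same 4 genes were at -2.24, -0.75, -0.74 and 0.37, and SAMD9 was at 0.35 with the reads behind the FPKM values of control repeat 2.

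**Figure D5:**
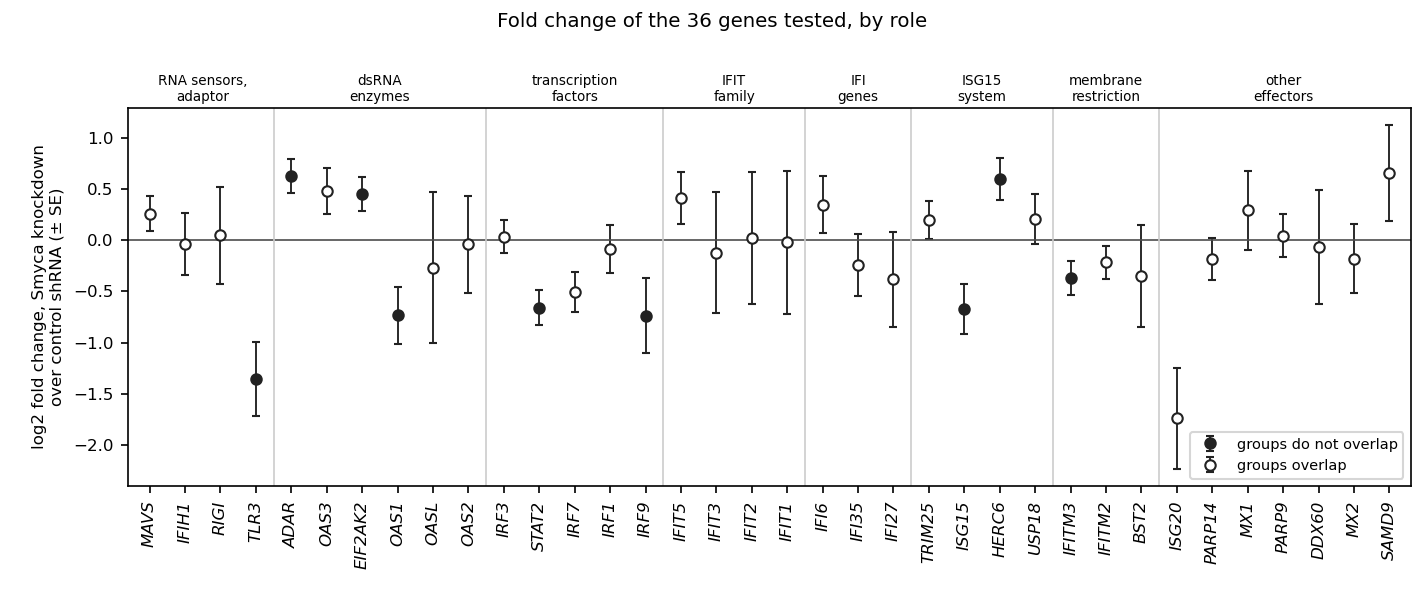
The log2 fold change of the 36 members tested, Smyca knockdown over control, grouped by role, with bars of 1 standard error. Filled points mark the 9 members whose groups did not overlap, from -1.35 for TLR3 to 0.62 for ADAR, and the widest bars belong to OASL, IFIT1 and IFIT2.

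Genes around the pathway were counted in 4 further lists, in which edgeR's quasi-likelihood test called 0 genes, beside 0.0265% of all genes. Of 15 interferon, receptor and JAK genes, 10 were tested, and 2 had an unadjusted p under 0.05, where 19.2% of all genes did. SOCS3, a feedback inhibitor of JAK signalling, had 489, 312 and 225 counts in the control and 57, 40 and 91 in the knockdown. Its groups were far apart, with a log2 fold change of -2.39 (SE 0.39, edgeR adjusted p = 0.111), the lowest of this list. The receptor chain IFNAR1 was higher in the knockdown, at 0.41 (SE 0.16). Of 15 signalling partners of the sensors, 9 were tested and 3 were under 0.05, again beside 19.2% of all genes. TRAF3, which links MAVS and TLR3 to the kinases that activate IRF3, was at 46.5, 54.7 and 55.2 in the control and at 88.3, 82.3 and 90.5 in the knockdown. Its groups did not overlap, with a log2 fold change of 0.74 (SE 0.14, edgeR adjusted p = 0.111), the highest of the list. The kinase IKBKE was at 0.64 (SE 0.17) and the ligase TRAF6 at -0.43 (SE 0.17), the lowest. TLR7 and TLR8, receptors for single-stranded RNA, had 0 counts in every library.

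The machinery that makes and uses hairpin-derived small RNAs was counted throughout. All 9 genes were tested, and 2, XPO5 and AGO4, were under 0.05, beside the same share of all genes. XPO5, which exports hairpins from the nucleus, was at 69.8, 75.8 and 78.9 normalized CPM in the control and at 96.3, 107 and 98.0 in the knockdown. Its groups did not overlap, with a log2 fold change of 0.43 (SE 0.13, edgeR adjusted p = 0.154). DGCR8, the partner of DROSHA, had the highest fold change at 0.50 (SE 0.27), and AGO4 the lowest at -0.63 (SE 0.22, edgeR adjusted p = 0.183). Of 16 further interferon-stimulated genes, 10 were tested and 2 were under 0.05 (19.2% of all genes), SP100 at -0.83 (SE 0.25) and TRIM5 at -0.47 (SE 0.20). GBP2 was the highest at 0.81 (SE 0.55), with its highest library in knockdown repeat 3. By direction, 3 of the 36 members (8.33%) had an unadjusted p under 0.05 with a higher knockdown and 6 (16.7%) with a lower one, where all genes gave 8.74% and 10.4%.

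The promoters of the members were searched, since many interferon-stimulated genes carry a response element with the core GAAANNGAAA. The 250 bases before the RefSeq start of each gene (GRCh38.p14) were read for this core on both strands, where the other strand reads TTTCNNTTTC and matches may overlap. It was found in 839 of 27305 promoters (3.07%), and in 18 of the 35 members matched by symbol (51.4%). STAT2, ADAR, TLR3, EIF2AK2, HERC6 and OAS1 had no match in this window. Windows of 30 bases, with the core in capitals and read 5′ to 3′ on the strand of the gene, are shown for 4 members and IFNL1. They lie at chr10:89392497-89392526 for IFIT1, chr10:89327865-89327894 for IFIT3, chr1:1013380-1013409 for ISG15 and chr19:39296183-39296212 for IFNL1, all on the plus strand, and at chr7:93118096-93118125 on the minus strand for SAMD9. None overlaps an exon of GENCODE release 44, and those of IFIT3 and ISG15 lie inside introns of longer transcripts.
IFIT1: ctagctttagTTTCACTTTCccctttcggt
IFIT3: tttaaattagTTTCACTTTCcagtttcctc
ISG15: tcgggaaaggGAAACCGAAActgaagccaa
SAMD9: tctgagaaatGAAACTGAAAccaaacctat
IFNL1: gttctaaggaTTTCAGTTTCtctttccttc

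The IFIT genes also share their place in the genome. IFIT2, IFIT3, IFIT1 and IFIT5 follow each other on the plus strand of chromosome 10, with 18035, 15072 and 8080 bases between them. IFIT5, the last of the row, ranged from 11.2 to 25.6 normalized CPM and also had its highest value of each group in repeat 3. The target of Smyca shRNA #1 had no full match among the 739 GENCODE transcripts of the 44 members, and its longest run of bases shared with any of them was 10 of 21, in IFI27 and OAS3. For the hairpin that the supplement lists as control, the longest run was 11 of 22, in RIGI, again with no full match. Whether the control libraries carry that hairpin is not given in the labels.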

How the data were processed

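The authors mapped reads to GRCh38 with TopHat2 2.0.12, as the submitters' processing notes also give, and deposited for each library a read count per Ensembl gene from HTSeq. The annotation release and strand setting of the counting are not given in the sources used here. FPKM values, also deposited by the authors, were used to recover gene lengths and the reads behind control repeat 2 (100% of 23593 genes whole within 0.05). Symbols came from GENCODE release 44 for 57532 of 58302 genes. The test ran under R 4.3.3 in edgeR 4.0.16 (limma 3.58.1 underneath, TMM, filterByExpr, quasi-likelihood test, Benjamini-Hochberg adjustment over 15075 genes). DESeq2 1.42.0, other normalizations and filters, a block by repeat number, each library left out, and other thresholds were alternatives. The members and lists were chosen with earlier results of these data known. Members with the lowest unadjusted p, the sensors, the highest and lowest levels, and from the other lists the genes with an unadjusted p under 0.05 and the extreme fold changes were named. IFI44, RSAD2, the type III interferons and both chemokines were named after their values were seen. Standard errors are the log2 fold change over the square root of the F statistic. The code was tested on simulated counts, drawn with 1 spread for all genes and 200 genes changed. At a log2 fold change of 1 it called 24% of the changed genes, with 6 false calls. At a log2 fold change of 2 it called 93%, with 7 false calls. A gene that was not called may thus still have changed. Two-sided exact permutation tests of 3 against 3 libraries cannot give a p under 0.1, so they were not used for calls.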

Additional observations from a re-analysis of the deposited data

Results flagged for a closer look

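In control repeat 2, the FPKM values did not follow the counts over the whole column, with 3357 genes at 0 counts and FPKM above 0 and 2445 the other way. Among the members, its FPKM values correspond to 69 reads of IFI44 and 11 reads of RSAD2, where its counts were 0 for both genes, above the 3 counts that a count of 0 allows. In the same 2 genes control repeat 3 had 53 and 10 counts. Among the 36 members tested, 29 were nearer in log2(CPM of total counts + 1) between this column and control repeat 3 than between this column and the counts of control repeat 2, or 80.6% beside 80.0% of all genes. The cause was not tested.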

How the results depend on the processing

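With edgeR's quasi-likelihood test, the 4 genes called among all genes became 8 with total counts in place of TMM, 916 without the filter (348 higher and 568 lower in the knockdown), 10 with whole reads recovered from FPKM for control repeat 2 and 8 at an adjusted p under 0.10. DESeq2's Wald test called 880 (395 higher, 485 lower). Leaving out single libraries gave 0 to 1646, the highest without control repeat 3, and 2 without control repeat 2 or knockdown repeat 3. The members called, 0 with 9 at an unadjusted p under 0.05, became 2 without the filter (ADAR, ISG20), 4 with DESeq2, and 0 to 4 with single libraries left out, 4 without control repeat 3. Of the 36 members these were 5.56% without the filter, 11.1% with DESeq2 and 11.1% without control repeat 3. Of the 15075 genes tested with all libraries, the same settings called 5.74%, 5.78% and 10.5%. The median log2 fold change of the members, -0.055, ranged from -0.30 (without knockdown repeat 3) to 0.16 (without knockdown repeat 2). That of MIR23AHG was -1.49 without the filter (adjusted p = 6.46e-04) and -1.49 with DESeq2 (adjusted p = 4.83e-05), and -1.81 to -1.33 with single libraries left out, where its adjusted p was 0.0152 without control repeat 3 (edgeR's quasi-likelihood test); over all alternatives it ranged from 4.83e-05 to 0.440.

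With the repeat number as a block, 0 genes were called. Same-numbered repeats deviated together with correlations of 0.0533, 0.0968 and 0.0291, and control repeat 3 correlated best with knockdown repeat 2 (0.0368), so the numbers were not taken to pair the libraries. Under the block the log2 fold changes of IFIT1, IFIT3 and RIGI changed sign, to 0.12, 0.056 and -0.13.

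Of the 36 members, 19 kept their sign under every alternative and 17 did not, none of them called with all libraries. IFIT1 was 0.016 without the filter and 0.020 with DESeq2. With total counts, IFIT2 was -0.070, RIGI -0.038, IRF3 -0.043 and PARP9 -0.031. IFIT2 was -0.0041 with at least 10 counts in every library. With the FPKM column of control repeat 2, IFIT2 was -0.47, RIGI -5.1e-04, OAS2 0.27 and IRF3 -0.0047. With single libraries left out, the log2 fold change ranged from -0.80 to 1.06 for IFIT1, -0.50 to 1.06 for IFIT2, -0.54 to 0.85 for IFIT3, -0.011 to 0.55 for IFI6, -0.59 to 0.024 for IFI27, -0.28 to 0.18 for IFIH1, -0.71 to 0.36 for RIGI, -0.17 to 0.59 for MX1, -0.39 to 0.014 for MX2, -0.73 to 0.22 for OAS2, -1.55 to 0.40 for OASL, -0.21 to 0.086 for IRF1, -0.091 to 0.11 for IRF3, -0.76 to 0.042 for BST2, -0.055 to 0.11 for PARP9, -0.34 to 0.0047 for PARP14 and -0.92 to 0.32 for DDX60. Among members that kept their sign it ranged from -0.42 to -0.027 for IFI35, 0.19 to 0.63 for IFIT5 and 0.37 to 1.35 for SAMD9. Apart from the smaller number of libraries, the cause was not tested. The count of members highest in repeat 3 of both groups, 18, was 17 with total counts and 14 with the FPKM column of control repeat 2, alternatives chosen after the data were seen.

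Limits remain. Cells without an shRNA were not analysed here, and 1 Smyca shRNA was used. In bulk RNA, fewer responding cells and less RNA per cell cannot be told apart. Counts under about 100 a library, as for TLR3, IRF9, IFI27 and BST2, carry large counting error. Reads of the related IFIT, OAS, IFITM and IFNL genes were not told apart here.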
